A study of Homo sapiens with 18 samples.

Results

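The difference between the MPA responses of 2 PGR-activated endometrial stromal cell lines is described here, taken as the log2 change under MPA in promoter cells minus the log2 change under MPA in U1U2 cells. A positive difference means that a gene rose more, or fell less, in promoter cells. It rests on 12 of the 18 libraries of the series, 3 in each of 4 of its 6 groups, and these were chosen by their labels alone. All cells were THESC, an immortalised line of stromal cells from human uterine lining, engineered with CRISPR guide RNAs and grown with blasticidin. U1U2 cells carried guide RNAs named U1U2, and their genotype is given as PGRA/B-equivalent. Promoter cells carried a promoter guide RNA, and their genotype is given as PGRB-dominant. Each line was treated for 72 hours with 1 µM medroxyprogesterone acetate (MPA), a synthetic progestin, or with 0.01% ethanol as vehicle, after a day in low serum. NT cells, with a non-targeting guide RNA and the genotype WT, received the same treatments in 6 further libraries and serve below to choose genes without using either activated line and as a reference in the plots. Whether each line is a clone or a pool is not given in the sources used here.

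PGR encodes the progesterone receptor, a transcription factor that progestins activate, and its isoforms A and B share their DNA-binding and hormone-binding domains. In endometrial stroma the receptor acts with factors such as FOXO1 to turn on the decidual programme, and withdrawal of cells from the cell cycle accompanies that programme. MPA also binds the glucocorticoid receptor, which shares many targets with PGR, such as FKBP5 and TSC22D3. A gene's counts do not separate the PGR isoforms.

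The 12 libraries held 16806173 to 33418643 counts and 1.63% to 2.53% mitochondrial counts, and 15558 of 78724 genes were abundant enough to test. Stromal transcripts were abundant, as the labelled cell type has them: VIM had 28277 to 50164 counts and COL1A1 33728 to 113136 counts per library, and 17 of 18 stromal markers were measured. Defining markers of other cells were at or near 0, with PECAM1 at 0 to 4, CDH5 at 0 to 1, CDH1 at 0 to 6 and CD14 at 0 to 2 counts, or low, with EPCAM at 3 to 34 and PTPRC at 33 to 143 counts. Of the other marker lists, 5 of 10 epithelial, 1 of 8 endothelial and 2 of 10 leukocyte genes were measured. The epithelial sum, led by KRT19, was 21.2 to 53.5 CPM (counts scaled to a common library total) over the 12 libraries, and the leukocyte sum, led by PTPRC, was 2.48 to 5.22 CPM. The summed levels of these lists in promoter and U1U2 libraries overlapped in vehicle. The endothelial sum, led by TEK, was 45.4 to 50.6 CPM in U1U2 MPA and 42.3 to 43.5 CPM in promoter MPA, and its part in any result was not tested. None of the 25 measured markers of these 4 lists was called for a difference of responses by edgeR's quasi-likelihood test or by DESeq2, and 1, TEK, was lower at an unadjusted p under 0.05. Their medians were -0.31 for the epithelial, -0.24 for the endothelial, 0.02 for the leukocyte and -0.05 for the stromal markers, against -0.03 over all tested genes.

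The responses of the lines had the same direction for nearly every gene that responded, and were slightly larger in promoter cells. By edgeR's quasi-likelihood test at a Benjamini-Hochberg adjusted p under 0.05, MPA changed 2339 genes in promoter cells (15% of those tested, 1032 or 6.63% higher and 1307 or 8.4% lower) and 1814 in U1U2 cells (11.7%, 846 or 5.44% higher and 968 or 6.22% lower). Both lines shared 1360 of these calls, which are 58.1% of the promoter calls and 75% of the U1U2 calls. All 1360 had the same direction, and 0 genes were called in opposite directions. Of the 979 genes called in promoter cells alone, 890 had the same sign in U1U2 cells, and of the 454 called in U1U2 cells alone, 430 had the same sign in promoter cells. The difference itself had an unadjusted p under 0.05 for 269 of the 979 (27.5%) and 86 of the 454 genes (18.9%), against 5.17% of all tested genes. Both sets were chosen on libraries that the difference shares, so these shares are a description, and most genes called in 1 line alone did not meet even this rule.

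To compare sizes without favouring either line, the 922 genes called for MPA in NT cells were used (5.93% of those tested, with 2.44% higher and 3.48% lower), since NT cells share no library with the activated lines. Across these genes, which are not independent replicates, the promoter response was 1.11 times the U1U2 response (slope through the origin, both axes with error; Pearson's r = 0.97). The slope was 1.11 over the 380 genes that rose in NT cells and 1.10 over the 542 that fell. Of the 922 genes, 887 (96.2%) had the same sign in both lines, and 543 (58.9%) had the larger response in promoter cells. The median gain in promoter cells was 0.05 on the log2 scale. Over all tested genes, most of which did not respond, the slope was 1.12 and 74.2% had the same sign.

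Response size was also read library by library, by another slope than that of 1 line on the other. It is the slope of a library's change from its line's vehicle mean on the NT response over those 922 genes. These genes were chosen by their NT response, so the values do not compare either activated line with NT cells. The 3 U1U2 MPA libraries stood at 0.91, 0.87 and 0.91, and the 3 promoter MPA libraries at 0.97, 0.95 and 0.96. Every promoter MPA library lay above every U1U2 MPA library. The 3 values of a line share its vehicle mean, and single vehicle libraries ran from -0.06 to 0.05, a spread wider than the gap between the closest MPA libraries of the lines. With 3 libraries against 3, an exact two-sided permutation test cannot go below a p of 0.1.

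**Figure D1:**
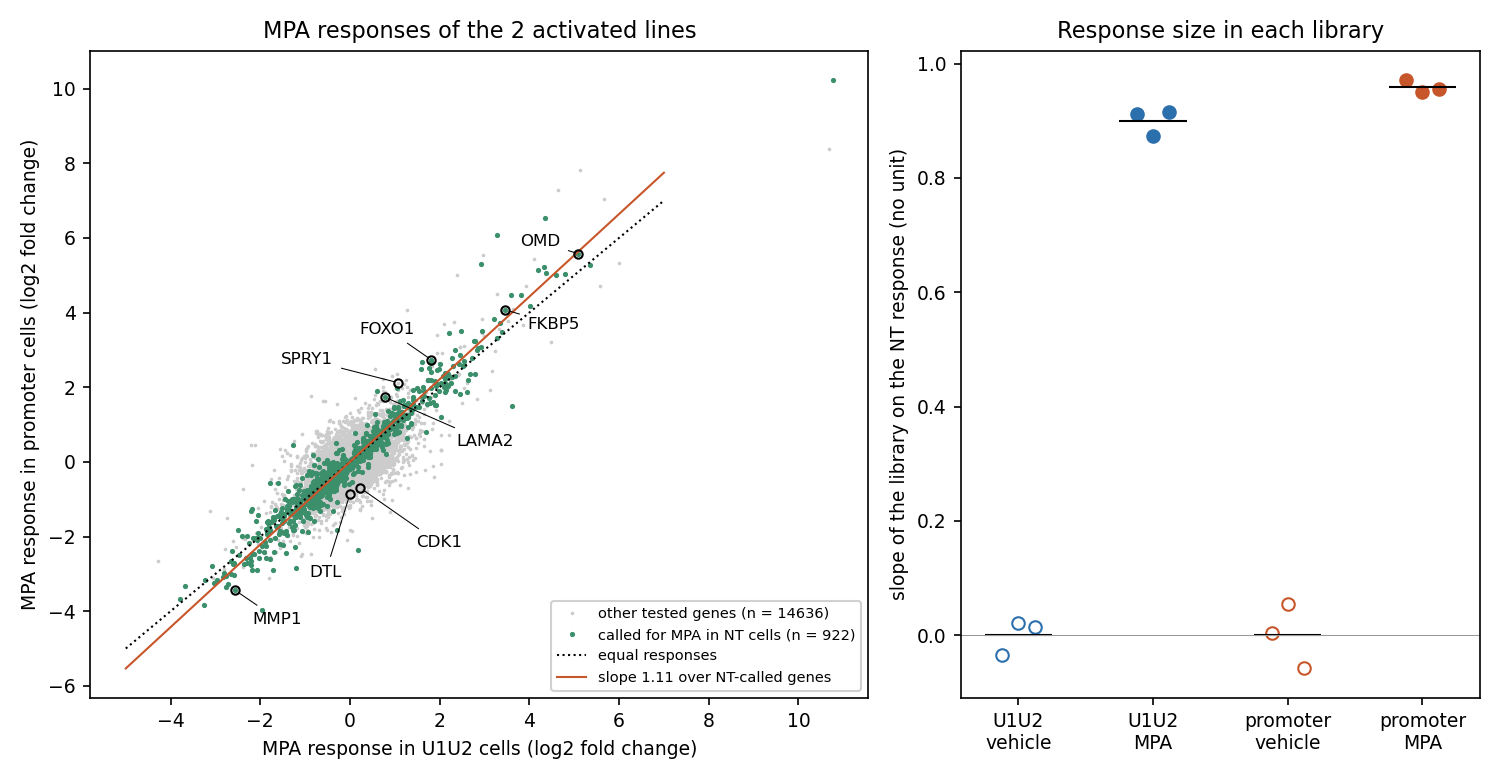
Left: log2 fold change under MPA in U1U2 cells (x axis) and promoter cells (y axis) for 15558 tested genes, with the 922 genes called in NT cells in green, the line of equal responses dotted and the slope of 1.11 solid. Right: slope of each library's change on the NT response (no unit), 1 point per library with a bar at the group mean; the promoter MPA points (0.95 to 0.97) lie above the U1U2 MPA points (0.87 to 0.91) and vehicle points lie between -0.06 and 0.05.

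The largest responses had the same direction in both lines, and their sizes varied. The 30 genes with the largest responses among those called in both lines were chosen on libraries that the difference shares. Among these 30, the difference had no usable standard error for ZBTB16, ALOX15B, CNR1, C5AR2 and ANO3. A missing call says little about the sizes of those responses. Of these 30, 0 passed the test for a difference by edgeR and 1 (FKBP5) passed by DESeq2. At an unadjusted p under 0.05 there were 6, all 6 larger in promoter cells. That rule was met by 9.71% of the 1360 genes called in both lines and by 5.17% of all tested genes (2.21% higher). Among the 6 were FKBP5, APCDD1 and MEDAG, which rose by 4.48 ± 0.21 in promoter and 3.60 ± 0.20 in U1U2 cells. Another was the glucose transporter SLC2A14, at 5.55 ± 0.36 and 2.97 ± 0.45. MEDAG and SLC2A14 were named after their values were seen, and SLC2A14 is scarce and may share reads with its near-identical copy SLC2A3. RORB, also named after its values were seen, rose by 7.04 ± 0.28 and 5.65 ± 0.41, with an imprecise difference of 1.38 ± 0.90. In MPA alone RORB was higher in promoter cells by 2.80 ± 0.18 (edgeR adjusted p = 2.63e-07). Other large responses, picked as examples and not all among the 30, were closer in size. OMD, the proteoglycan osteomodulin, rose by 5.58 ± 0.21 (log2 fold change ± standard error) in promoter cells and 5.09 ± 0.21 in U1U2 cells, a difference of 0.49 ± 0.33. HSD11B1, the enzyme that regenerates active cortisol, rose by 5.04 ± 0.24 and 4.79 ± 0.25. PTGER2, a receptor for prostaglandin E2, rose by 3.48 ± 0.15 and 3.39 ± 0.15, and RGCC, a regulator of cell cycle progression, by 2.10 ± 0.09 and 2.14 ± 0.09. IGFBP3, which binds insulin-like growth factors, fell by 1.22 ± 0.09 and 1.11 ± 0.09, and the stromelysin MMP3 fell by 3.07 ± 0.31 and 2.77 ± 0.29. For these last 6 genes the difference was within 2 of its standard errors of 0, and for HSD11B1, OMD and MMP3 the 95% interval still reached past a 2-fold difference.

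How large a difference the libraries still allow was read from its 95% interval. For 10855 genes (69.8% of those tested) that interval lay within a 2-fold difference in either direction. Among the 922 NT-called genes it did for 734 (79.6%). The 4703 genes whose interval reached past 2-fold were mostly scarce, with a median level of -0.29 log2 CPM against 5.04 for the others. They also include well-measured genes with a large difference, such as DTL and LAMA2 at 4.70 and 4.98 log2 CPM. For the scarce ones a missing call leaves a difference of 2-fold open in many cases, and the part of depth was not tested.

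The difference of responses itself passed the test for 2 genes (0.0129% of those tested), DTL lower and LAMA2 higher (0.00643% in each direction). At an unadjusted p under 0.05 there were 804 genes (5.17%), 344 higher (2.21%) and 460 lower (2.96%). DESeq2's Wald test called 57 of the 11335 genes it adjusted (0.503%), 29 higher (0.256%) and 28 lower (0.247%), and all 57 had the same sign in edgeR. Both calls by edgeR were lost, at an adjusted p of 0.051 for each gene, without U1U2 MPA replicate 2 or without promoter MPA replicate 1, and also with only the 12 libraries fitted (0.054).

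DTL (ENSG00000143476, chr1:212035553-212107400, plus strand, GENCODE 29 on GRCh38) encodes the adaptor by which a cullin ubiquitin ligase destroys the replication licensing factor CDT1 in S phase. Its level in promoter vehicle was 40.0, 39.8 and 36.9 CPM, and it was 19.8, 21.1 and 22.8 CPM in promoter MPA. In U1U2 cells it was 23.6, 23.6 and 22.8 CPM in vehicle and 23.6, 23.2 and 23.1 CPM in MPA. The promoter vehicle libraries stood alone above the other 9, which lay between 19.8 and 23.6 CPM. DTL fell under MPA in promoter cells by 0.87 ± 0.08 (edgeR adjusted p = 3.06e-07) and stood at -0.004 ± 0.08 in U1U2 cells. The difference of responses was -0.87 ± 0.11 (adjusted p = 0.00837). Between the lines it was higher in promoter cells by 0.74 ± 0.08 in vehicle (adjusted p = 0.000162) and stood at -0.13 ± 0.08 in MPA.

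LAMA2 (ENSG00000196569, chr6:128883141-129516569, plus strand) encodes the alpha-2 chain of laminin, a protein of basement membranes. It was at 25.6, 23.9 and 23.0 CPM in U1U2 vehicle and 40.2, 38.6 and 44.8 CPM in U1U2 MPA. In promoter cells it went from 17.0, 19.2 and 15.6 CPM in vehicle to 59.0, 56.6 and 56.4 CPM in MPA. The promoter libraries were the lowest of the 12 in vehicle and the highest in MPA, with no overlap between any 2 groups. LAMA2 rose in both lines, by 1.74 ± 0.10 in promoter cells (adjusted p = 4.54e-10) and by 0.77 ± 0.09 in U1U2 cells (adjusted p = 1.19e-05), and the difference was 0.96 ± 0.13 (adjusted p = 0.00837). The lines differed on both sides of the treatment, by -0.49 ± 0.09 in vehicle and 0.48 ± 0.09 in MPA (edgeR adjusted p = 0.0167 and 0.0283). Each of these last calls was lost in 5 of the 12 fits that leave out 1 library, with adjusted p up to 0.122 and 0.197.

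The promoters of DTL, of the mitotic kinase CDK1 and of LAMA2 are printed because they set an S phase gene and a mitosis gene, whose differences were negative, beside a matrix gene, whose difference was positive. Each window runs from 250 bases before to 50 after the start in RefSeq (GRCh38.p14), and is at chr1:212035498-212035797 on the plus strand for DTL, chr10:60778081-60778380 on the plus strand for CDK1 and chr6:128882888-128883187 on the plus strand for LAMA2. Capitals mark matches on either strand to TTTGAA (the core of the cell cycle homology region), CCAAT, TTTGGCGC (an E2F-type site) or TGTTTAC (a forkhead site), none of which overlap here.
DTL: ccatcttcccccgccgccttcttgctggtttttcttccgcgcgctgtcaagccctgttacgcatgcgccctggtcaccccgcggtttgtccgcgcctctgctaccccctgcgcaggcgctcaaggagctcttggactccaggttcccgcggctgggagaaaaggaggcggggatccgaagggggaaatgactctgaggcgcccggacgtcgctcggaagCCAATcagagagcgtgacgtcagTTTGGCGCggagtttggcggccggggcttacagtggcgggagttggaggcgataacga
CDK1: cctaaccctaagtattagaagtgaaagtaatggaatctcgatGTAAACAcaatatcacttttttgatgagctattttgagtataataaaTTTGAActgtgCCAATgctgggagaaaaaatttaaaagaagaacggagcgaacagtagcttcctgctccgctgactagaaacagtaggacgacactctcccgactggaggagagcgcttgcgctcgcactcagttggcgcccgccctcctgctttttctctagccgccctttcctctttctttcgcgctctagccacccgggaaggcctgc
LAMA2: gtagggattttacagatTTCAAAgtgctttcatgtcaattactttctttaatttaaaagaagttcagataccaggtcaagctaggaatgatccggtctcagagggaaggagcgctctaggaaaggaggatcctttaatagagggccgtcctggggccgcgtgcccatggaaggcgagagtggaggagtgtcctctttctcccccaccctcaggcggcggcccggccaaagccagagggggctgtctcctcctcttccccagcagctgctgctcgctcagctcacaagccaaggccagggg
DTL held CCAAT at -31 to -27 and TTTGGCGC at -8 to -1 from the start. CDK1 held the forkhead letters at -208 to -202, TTTGAA at -161 to -156 and CCAAT at -150 to -146, and LAMA2 held TTTGAA on the minus strand at -233 to -228. These matches describe letters and not bound sites.

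Genes near the threshold are described next. At an adjusted p under 0.1 there were 19 genes (0.122% of those tested), 9 higher (0.0578%) and 10 lower (0.0643%). Besides DTL the lower genes were MMP1 (interstitial collagenase), CDK1, SKA1 and INCENP (chromosome attachment and segregation), MAD2L1 (spindle checkpoint), RRM2 (deoxynucleotide synthesis), RFC3 (clamp loading at replication forks), PRR11 and DEPDC1. Of these, CDK1 and MAD2L1 are on the mitosis list and RRM2 and RFC3 on the DNA replication list. The higher genes besides LAMA2 included KIF13B (a kinesin), FOXO1, KCNE4 (a potassium channel subunit), SPP1 (osteopontin), PRUNE2, SPRY1 (an inhibitor of receptor tyrosine kinase signalling) and ZNF532. KIF13B, SKA1, KCNE4, SPP1, PRR11, PRUNE2, DEPDC1, INCENP and ZNF532 are on no list and were named after their values were seen. The next gene after the 2 called ones was KIF13B, at 0.83 and an adjusted p of 0.0634.

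The lower genes apart from MMP1 differed between the lines mainly in vehicle. MMP1 stood at 0.40 ± 0.10 (promoter minus U1U2) in vehicle and -0.47 ± 0.11 in MPA, neither of them called by edgeR. All 10 lower genes fell in promoter cells, and MMP1 alone of them was called in U1U2 cells. All 10 were higher in promoter than in U1U2 vehicle, 9 of them called (0.784% of all tested genes were called in that comparison, 0.527% higher and 0.257% lower), and 0 were called in MPA (0.328% of all tested genes). The 9 higher genes rose in promoter cells, and 7 of them rose in U1U2 cells. Of these 9, 2 were called in vehicle (LAMA2 and SPRY1, both lower in promoter cells) and 6 in MPA, all higher in promoter cells (0.193% of all tested genes). These comparisons share their libraries with the difference of responses, so the counts describe where it lies and do not test it again. The calls between lines were fragile: the vehicle count of 122 genes fell to between 39 and 64 without any single vehicle library, and the MPA count of 51 to between 15 and 30 without U1U2 MPA replicate 1 or 2 or any promoter MPA library.

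CDK1 (chr10:60778331-60794852), the kinase that drives entry into mitosis, was at 83.9, 94.1 and 75.8 CPM in promoter vehicle and 45.5, 55.0 and 56.9 CPM in promoter MPA. U1U2 cells had 51.9, 56.2 and 54.7 CPM in vehicle and 67.1, 65.1 and 57.0 CPM in MPA. Promoter vehicle was above all other libraries, and the U1U2 libraries were all higher in MPA than in vehicle, though that change was not called (0.22 ± 0.11, edgeR adjusted p = 0.256). The difference was -0.91 ± 0.16 (adjusted p = 0.0634).

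MMP1, which cuts fibrillar collagen, fell steeply in both lines. It went from 54.2, 45.3 and 46.2 to 4.56, 4.03 and 4.88 CPM in promoter cells and from 33.3, 40.6 and 36.3 to 6.18, 5.97 and 6.41 CPM in U1U2 cells. Promoter libraries were higher in vehicle and lower in MPA, without overlap. The falls were -3.44 ± 0.11 and -2.57 ± 0.11 on the log2 scale, and the difference was -0.87 ± 0.15 (edgeR adjusted p = 0.0634).

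FOXO1 (chr13:40469953-40666597, minus strand), a partner of the progesterone receptor in decidual cells, differed under MPA. It rose from 16.1, 14.0 and 17.3 to 59.0, 59.8 and 47.7 CPM in U1U2 cells and from 16.4, 18.3 and 17.6 to 110, 121 and 116 CPM in promoter cells. Vehicle libraries of the lines overlapped, and every promoter MPA library was above every U1U2 MPA library. The rises were 2.73 ± 0.12 and 1.81 ± 0.12 in promoter and U1U2 cells, the gap in MPA was 1.06 ± 0.11 (edgeR adjusted p = 9.96e-05), and the difference of responses was 0.92 ± 0.17 (adjusted p = 0.0634).

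SPRY1 was scarce, at 1.29, 1.44 and 1.39 CPM in promoter vehicle, 6.67, 5.78 and 5.46 CPM in promoter MPA, 2.35, 2.72 and 2.11 CPM in U1U2 vehicle and 5.01, 5.21 and 4.84 CPM in U1U2 MPA. It rose by 2.12 ± 0.15 in promoter cells and 1.07 ± 0.14 in U1U2 cells, with no overlap of the lines in vehicle or in MPA. The difference was 1.06 ± 0.21 (edgeR adjusted p = 0.0791).

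**Figure D2:**
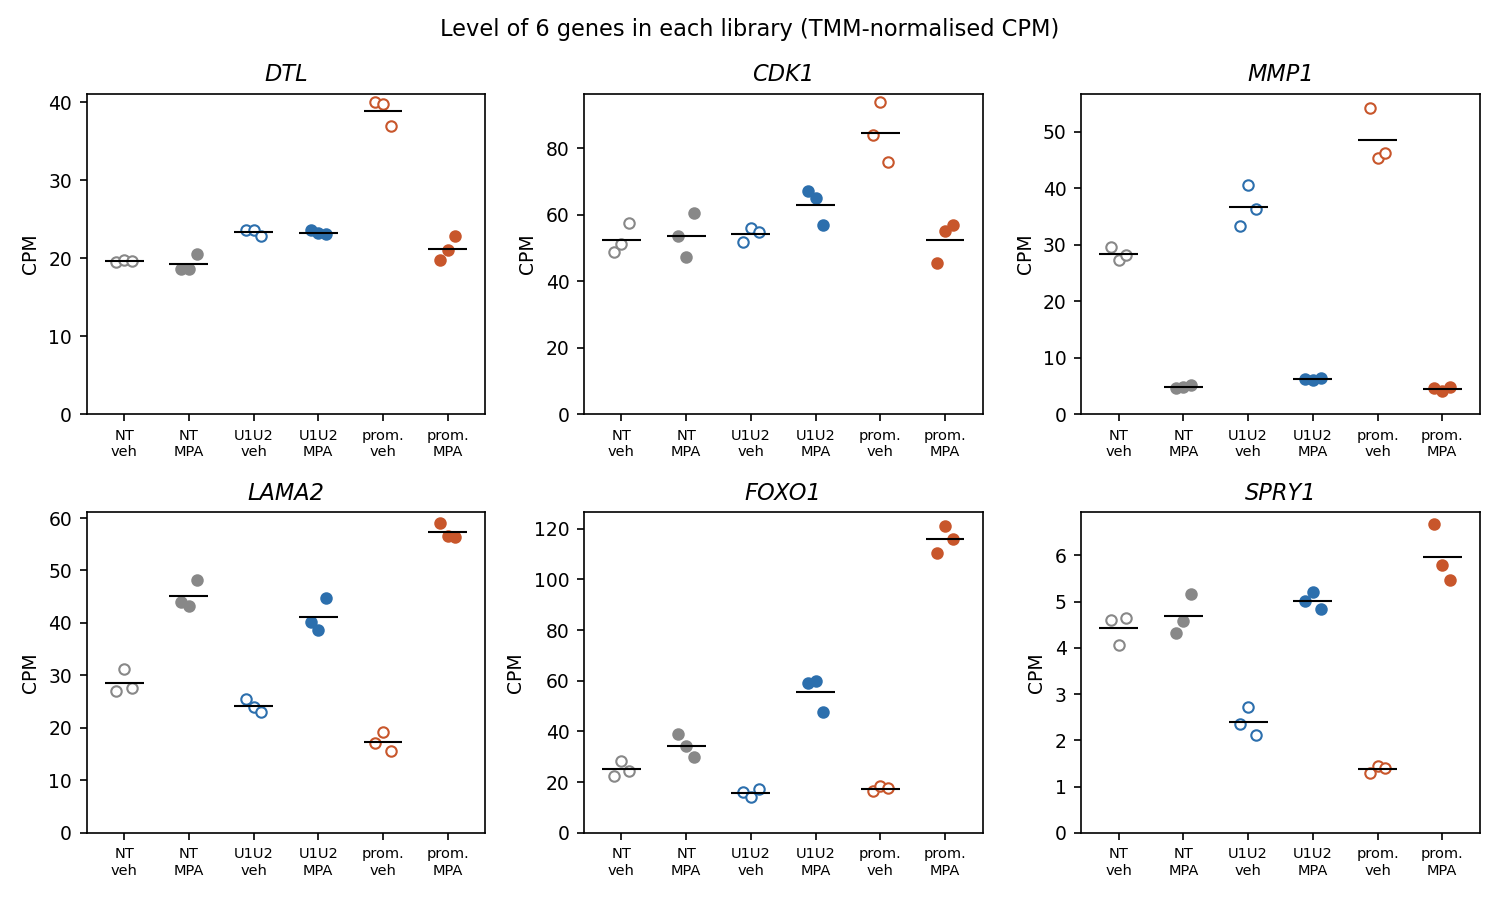
Level (TMM-normalised CPM, y axis from 0) of DTL, CDK1, MMP1, LAMA2, FOXO1 and SPRY1 in each of the 18 libraries by line and treatment, 1 point per library (open vehicle, filled MPA) with a bar at the group mean. DTL and CDK1 stand out in promoter vehicle (36.9 to 40.0 and 75.8 to 94.1 CPM) and FOXO1 in promoter MPA (110 to 121 CPM).

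Mitosis and DNA replication genes had the widest median difference of responses among the lists, though edgeR called no single member. The mitosis list (cyclins, kinetochore and spindle genes) had 39 of 40 genes measured. Its median response was -0.54 in promoter cells and 0.02 in U1U2 cells, and the median difference was -0.54, against -0.03 over all tested genes. Against 8604 of all 15558 tested genes, the difference was below 0 for 39 of 39 mitosis genes. By edgeR's test 0 of them were called; 32 of 39 were lower at an unadjusted p under 0.05, a rule met in that direction by 2.96% of all tested genes, and 5 were lower by DESeq2 (0.247% of the genes it adjusted). MPA lowered 30 of the 39 in promoter cells, where 8.4% of all tested genes fell. In U1U2 cells, where 6.22% of all tested genes fell, edgeR called 0 of the 39, 1 was higher and 1 lower at an unadjusted p under 0.05 (11.7% and 11.5% of all tested genes), and DESeq2 called 0 (12.6%). Genes of a list share their libraries and are not independent replicates, so counts over this and the other lists are a description. Fewer cycling cells and less of the mitosis RNAs per cell cannot be told apart in these bulk libraries.

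Values of single mitosis genes varied in size and precision. Cyclin CCNA2, which serves S phase and mitosis, stood at -0.49 ± 0.09 in promoter and 0.11 ± 0.09 in U1U2 cells (difference -0.60 ± 0.13). The centromere histone CENPA had a difference of -0.85 ± 0.19, MAD2L1 of -0.87 ± 0.17, topoisomerase TOP2A of -0.53 ± 0.18, the checkpoint kinase BUB1 of -0.58 ± 0.16, cyclin CCNB1 of -0.69 ± 0.30 and the activator CDC20 of -0.78 ± 0.35. The proliferation marker MKI67 was less clear, at -0.21 ± 0.24, and PLK1 stood at -0.42 ± 0.34.

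The DNA replication list (helicase, polymerase and nucleotide genes) had all 37 genes measured. Its median was -0.43 in promoter and 0.00 in U1U2 cells, with a median difference of -0.44 and all 37 below 0. By edgeR's test 0 were called, 14 were lower at an unadjusted p under 0.05 and 3 by DESeq2. MPA lowered 17 in promoter cells, though 9 without promoter vehicle replicate 1, 8 without promoter MPA replicate 1 and 11 without promoter MPA replicate 2. In U1U2 cells 0 changed by edgeR and by DESeq2, with 2 lower at an unadjusted p under 0.05. The helicase loader CDC6 had a difference of -0.64 ± 0.15, MCM4 of the helicase -0.38 ± 0.11, the sliding clamp PCNA -0.49 ± 0.19 and thymidylate synthase TYMS -0.44 ± 0.18. RRM2, the small subunit of ribonucleotide reductase, went from 195, 181 and 178 to 105, 118 and 121 CPM in promoter cells. In U1U2 cells RRM2 was at 136, 130 and 125 CPM in vehicle and 118, 129 and 124 CPM in MPA. Its promoter vehicle libraries were above all others, and its difference was -0.61 ± 0.12 (edgeR adjusted p = 0.0741).

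The gap between the lines in these groups lay in the vehicle libraries. In vehicle the mitosis genes were higher in promoter cells by a median of 0.46 (39 of 39 above 0, against 8039 of all 15558 tested genes). In MPA the mitosis genes differed by a median of -0.06. For the replication genes the medians were 0.40 (37 of 37 above 0) and -0.02. The mean level of the mitosis genes, relative to the 12 libraries, was 0.47, 0.33 and 0.33 (log2) in promoter vehicle and -0.32, -0.14 and -0.03 in promoter MPA. In U1U2 cells it was -0.11, -0.02 and -0.16 in vehicle and -0.24, -0.05 and -0.05 in MPA. The 3 promoter vehicle libraries were above all others, and the other 3 groups overlapped. For the replication genes promoter vehicle stood at 0.42, 0.15 and 0.37 and the other 9 libraries between -0.28 and 0.07, again without overlap. The library totals of promoter vehicle, 31181732, 16806173 and 33418643 counts, were both the lowest and the highest of the 12, and mitochondrial shares were 1.63% to 2.15% there; the part of either in the result was not tested.

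Calls in vehicle depended on single libraries. Of the 39 mitosis genes 12 were called higher in promoter vehicle by edgeR (0.527% of all tested genes were called in that direction), 37 at an unadjusted p under 0.05 (4.28%) and 21 by DESeq2 (1.15%), but 1 to 4 by edgeR when any vehicle library of either line was left out. Of the replication genes 4 were called, 28 at an unadjusted p under 0.05 and 10 by DESeq2, and 1 to 3 by edgeR without a vehicle library. The median differences of responses moved less, from -0.61 to -0.43 for mitosis and from -0.49 to -0.33 for replication over the 12 fits that leave out 1 library. The number of replication genes lower at an unadjusted p under 0.05 ran from 6 (without promoter vehicle replicate 1) to 22 (without U1U2 MPA replicate 1).

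Inhibitors and D cyclins that set the pace of G1 had a difference below 0 in 12 genes and above 0 in 4. Of 16 genes measured, 0 were called for a difference by edgeR, 3 were lower at an unadjusted p under 0.05 and 2 by DESeq2 (median -0.11). CCND1, cyclin D1, was at 511, 576 and 528 CPM in promoter vehicle and 347, 358 and 350 CPM in promoter MPA, and at 392, 376 and 396 CPM in U1U2 vehicle and 348, 382 and 326 CPM in U1U2 MPA. Promoter vehicle again stood above the rest, and the difference was -0.47 ± 0.11 (edgeR adjusted p = 0.163). The inhibitor CDKN2C had -0.63 ± 0.17 and the pocket protein RBL1 -0.37 ± 0.11, while the p53-induced inhibitor CDKN1A had -0.05 ± 0.21.

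The promoter letters of these lists can be set beside those of other genes. TTTGAA was in the window of 23 of 32 mitosis genes with a window (71.9%), 1 of 33 replication genes (3.03%), 10.3% of 11003 tested genes and 15.4% of all 27305 windows. CCAAT was in 78.1%, 54.5%, 36.6% and 35.7% of them. TTTGGCGC was in 0 mitosis windows, 8 replication windows (24.2%), 1.04% of tested and 0.659% of all windows. The half-site of the steroid response element, AGAACA, was in 9.38% of mitosis, 3.03% of replication, 9.05% of tested and 14.9% of all windows. All matches count both strands, and they describe these lists without showing which factor acts.

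**Figure D3:**
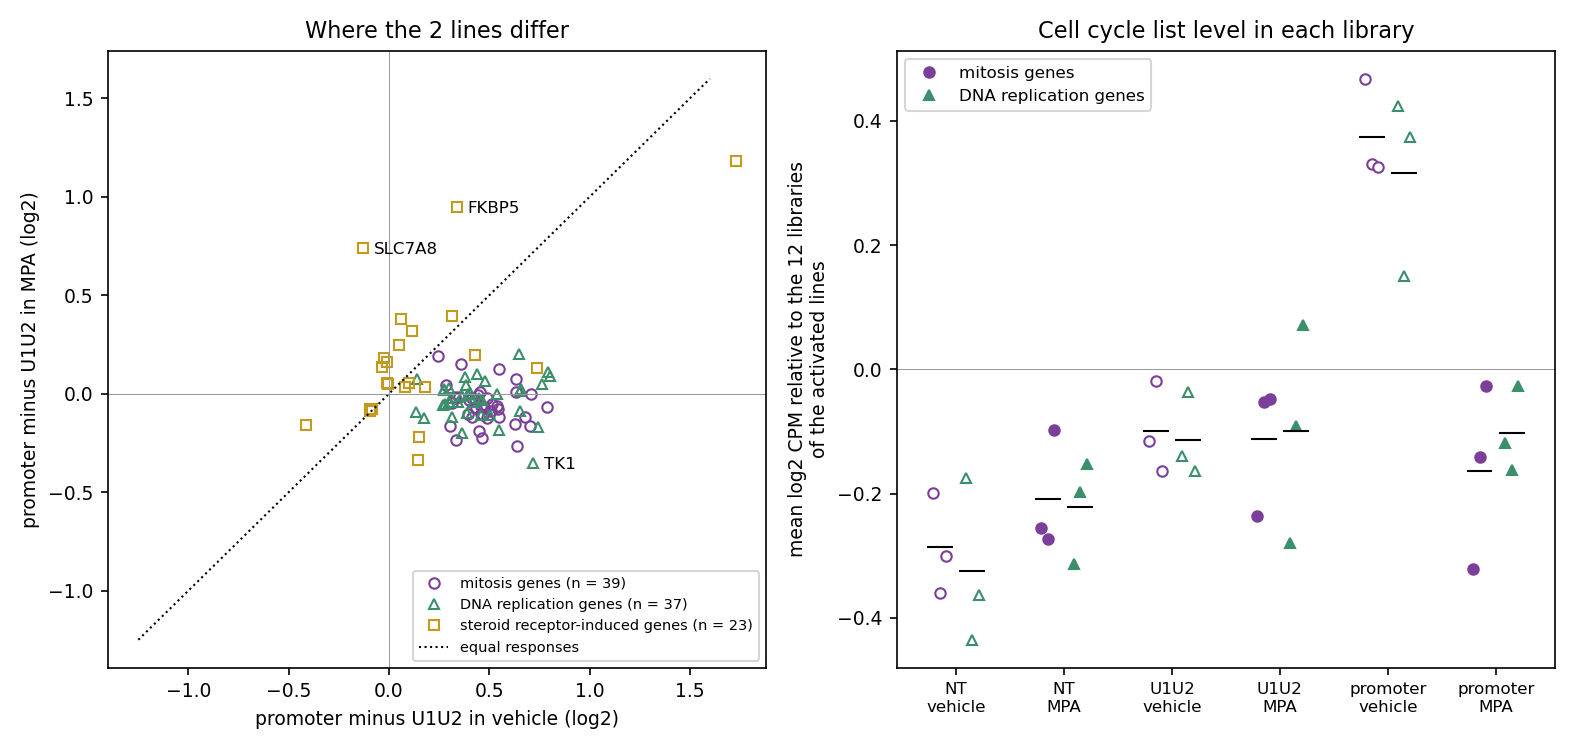
Left: each gene's difference between the lines (promoter minus U1U2, log2) in vehicle (x axis) and in MPA (y axis) for 39 mitosis, 37 DNA replication and 23 steroid receptor-induced genes, with equal responses on the dotted line; cell cycle genes lie to the right near 0 in MPA (medians 0.46 and -0.06 for mitosis), and the far right point is ZBTB16, whose vehicle value rests on 1 count. Right: mean log2 CPM of the 2 cell cycle lists in each library relative to the 12 libraries, with bars at group means; the promoter vehicle points are the highest.

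Classical steroid-induced genes rose in both lines. Of 23 measured, 18 rose in promoter cells and 19 in U1U2 cells (6.63% and 5.44% of all tested genes), 0 fell in either, and all 23 had the same sign in both. The median rise was 1.17 in promoter and 1.21 in U1U2 cells, and the median difference was 0.05. By edgeR's test 0 differed; 4 were higher (2.21% of all tested genes) and 1 lower at an unadjusted p under 0.05, and DESeq2 called 1 higher (0.256% of the genes it adjusted). TSC22D3, the glucocorticoid-induced leucine zipper, rose by 1.47 ± 0.21 in each line, though its difference, 0.00 ± 0.30, has a 95% interval of -0.62 to 0.62. CRISPLD2 rose by 1.66 ± 0.10 and 1.41 ± 0.10.

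FKBP5, a co-chaperone of steroid receptors, was the exception with the highest levels. It was at 354, 334 and 356 CPM in promoter MPA and 176, 180 and 184 CPM in U1U2 MPA, from 17.9, 23.8 and 20.7 CPM and 18.5, 15.4 and 15.3 CPM in vehicle. Its MPA libraries did not overlap between the lines and its vehicle libraries did. In MPA it was higher in promoter cells by 0.95 ± 0.09 (edgeR adjusted p = 2.15e-05), and the difference of responses was 0.61 ± 0.13 (adjusted p = 0.136). The amino acid transporter SLC7A8 had a difference of 0.87 ± 0.28 and the phosphatase DUSP1 of -0.37 ± 0.12. ZBTB16, a zinc finger repressor, was listed at 0 counts in every U1U2 vehicle library and had 1 count in promoter vehicle, so its difference cannot be measured. In MPA it was at 8.48, 8.51 and 10.2 CPM in U1U2 cells and 22.5, 20.2 and 19.1 CPM in promoter cells, without overlap.

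PGR itself fell in both lines. It went from 433, 475 and 395 to 264, 303 and 280 CPM in promoter cells and from 674, 531 and 584 to 291, 264 and 226 CPM in U1U2 cells. The PGR levels of the lines were apart in vehicle and overlapped in MPA, though edgeR called PGR between the lines in neither. PGR fell by 0.62 ± 0.12 in promoter and 1.20 ± 0.12 in U1U2 cells, and its difference of responses was 0.58 ± 0.17 (edgeR adjusted p = 0.451). The coactivator NCOA1 had 0.38 ± 0.11 and the glucocorticoid receptor NR3C1 0.07 ± 0.11. Of 21 receptors and cofactors 0 were called by edgeR, and 3 were higher and 1 lower at an unadjusted p under 0.05. By DESeq2 1 was higher, FOXO1, and the median was 0.03.

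FOXO targets rose in part in both lines: of 19 measured, 8 rose in promoter and 9 in U1U2 cells, with medians of 0.30 and 0.43 and a median difference of 0.10. The arrestin TXNIP had a difference of 0.50 ± 0.20 and catalase, CAT, of -0.23 ± 0.10. By edgeR 0 of the 19 differed, 2 were higher and 2 lower at an unadjusted p under 0.05, and DESeq2 called 1 higher, FOXO1 itself. Some genes, FOXO1 among them, are on more than 1 list. Decidual markers went both ways, with 5 of 24 higher and 7 lower in promoter cells, 7 higher and 6 lower in U1U2 cells and a median difference of -0.12. For the difference of responses 0 were called by edgeR, 2 were higher and 2 lower at an unadjusted p under 0.05, and 1, again FOXO1, was higher by DESeq2. PRL, IGFBP1, WNT4 and LEFTY2, which mark decidual cells, were too scarce to test, with at most 7, 5, 3 and 7 counts in a library. HAND2, a stromal target of progesterone, rose by 1.83 ± 0.20 and 1.30 ± 0.20 (difference 0.54 ± 0.28), and BMP2 fell by 2.71 ± 0.16 and 2.30 ± 0.16.

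Of the matrix lists, edgeR called LAMA2 alone for a difference of responses. Of 28 laminins, nidogens and other matrix glycoproteins, 1 (LAMA2) was called for a difference, 3 were higher at an unadjusted p under 0.05, and the median was 0.06. Of the 28, 13 rose in promoter and 10 in U1U2 cells, and 3 fell in each. The laminin beta chain LAMB1 had a difference of 0.54 ± 0.14 (edgeR adjusted p = 0.316). LAMA4 and nidogen NID1 moved alike, LAMA4 by -0.75 ± 0.08 in each line and NID1 by 0.74 ± 0.08 and 0.77 ± 0.08, with 95% intervals of the difference of -0.23 to 0.23 and -0.26 to 0.21. Fibronectin, FN1, rose by 0.93 ± 0.19 and 0.78 ± 0.19.

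Collagen chains had a median response of 0.34 in promoter and 0.52 in U1U2 cells, and of 22 chains 0 differed by edgeR, at an unadjusted p under 0.05 or by DESeq2 (median difference -0.09). Small leucine-rich proteoglycans likewise had 0 of 10 by each of these rules (median 0.12). Of 25 matrix-degrading enzymes and inhibitors, 11 fell and 5 rose in promoter cells and 9 fell and 7 rose in U1U2 cells, all 25 with the same sign in both lines. By edgeR 0 of the 25 differed, 1 was higher and 2 lower at an unadjusted p under 0.05, and DESeq2 called 1 lower, MMP1. The list's median was -0.51 in promoter and -0.22 in U1U2 cells and -0.12 for the difference. ADAMTS2, which trims procollagen, had a difference of 0.60 ± 0.16 and the urokinase PLAU of -0.60 ± 0.26. Contractile and actin genes had 0 of 28 called by edgeR or DESeq2 and 2 higher at an unadjusted p under 0.05 (median -0.06), and ACTG2 rose by 1.46 ± 0.19 and 1.53 ± 0.19.

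Many sterol synthesis genes fell in both lines. Of 27 sterol synthesis genes 15 fell in promoter and 11 in U1U2 cells (8.4% and 6.22% of all tested genes), with medians of -0.58 and -0.39. Of the 27, 24 had a difference below 0, against 8604 of all 15558 tested genes, and the median difference was -0.21. By edgeR and by DESeq2 0 of the 27 differed, and 4 were lower at an unadjusted p under 0.05 (2.96% of all tested genes). INSIG1, which holds back sterol synthesis when sterols are plentiful, fell by 1.18 ± 0.10 and 0.76 ± 0.10 (difference -0.42 ± 0.14), and HMGCS1 fell by 1.14 ± 0.13 and 0.93 ± 0.13. Without U1U2 MPA replicate 3 the median difference of the sterol list was -0.03, and without U1U2 vehicle replicate 1 it was -0.12. Cytokines and chemokines had a median of -0.74 in promoter and -0.62 in U1U2 cells over 12 genes and a median difference of -0.32, with 1 lower at an unadjusted p under 0.05 and 0 by edgeR or DESeq2. Of the 12, 6 fell in promoter cells (3 without promoter MPA replicate 3) and 4 in U1U2 cells (2 without U1U2 vehicle replicate 3 or U1U2 MPA replicate 1). The gene lower at an unadjusted p under 0.05 was the chemokine CXCL12, which fell by 1.48 ± 0.07 and 1.12 ± 0.07 (difference -0.37 ± 0.10, edgeR adjusted p = 0.36).

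Interferon-stimulated genes, which cells switch on against viruses, had a median difference above 0. Of 34 measured, 8 fell in promoter and 12 in U1U2 cells (8.4% and 6.22% of all tested genes), with medians of -0.23 and -0.45. The median difference was 0.12. By edgeR or DESeq2 0 of the 34 differed, and 2 of these genes were higher at an unadjusted p under 0.05. Their mean level in promoter MPA was 0.19, -0.34 and -0.28 relative to the 12 libraries, so promoter MPA replicate 1 stood apart, and without it the median difference was 0.05. In vehicle they stood at 0.23, -0.01 and 0.30 in promoter cells and 0.27, 0.34 and -0.02 in U1U2 cells, which overlap.

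Vascular and growth factor lists had no member called by edgeR, and some with an unadjusted p under 0.05. Of 24 angiogenic and vascular factors 0 were called by edgeR, 2 were higher and 3 lower at an unadjusted p under 0.05, and DESeq2 called 1 higher (median -0.01). NRP2, a receptor for VEGF-C and semaphorins, rose by 1.37 ± 0.08 in promoter and 0.84 ± 0.08 in U1U2 cells, a difference of 0.53 ± 0.11 (edgeR adjusted p = 0.109). The VEGF receptor FLT1 had 0.34 ± 0.12, and VEGFA -0.01 ± 0.21. In the FGF and Sprouty list (17 genes, median -0.15) SPRY1 was the only gene called by DESeq2, 1 gene was higher and 2 lower at an unadjusted p under 0.05, and FGF9, a growth factor for stroma, fell by 2.77 ± 0.16 and 2.20 ± 0.15 (difference -0.57 ± 0.21). In the WNT list (17 genes, median -0.16) the antagonist SFRP1 had -0.94 ± 0.29 and the antagonist APCDD1 0.67 ± 0.29. The ligand WNT2 fell by 1.59 ± 0.09 and 1.48 ± 0.09. BMP and ID genes (21, median -0.04) included the transcription regulator ID2 at -0.58 ± 0.18, and the activin binder FST, on the lists of BMP and of TGF-beta and activin genes (19, median -0.06), had -0.40 ± 0.17. The IGF axis (17 genes) had a median of 0.06 and prostaglandin genes (13) of -0.09. By edgeR 0 genes of these 6 lists were called for a difference, and by DESeq2 0 of the last 5. At an unadjusted p under 0.05 the WNT list had 1 higher and 1 lower gene, the BMP and ID list 2 lower and the TGF-beta list 1 lower, all named above, and the IGF and prostaglandin lists had 1 lower gene each, STC1 at -0.62 ± 0.25 and PTGS1 at -0.42 ± 0.18.

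Metabolic and stress lists had median differences of responses between -0.17 (metallothioneins) and -0.02 (stress genes). The medians of promoter and U1U2 responses were -0.16 and -0.03 for 33 glycolysis and hypoxia genes, -0.22 and -0.13 for 33 oxidative phosphorylation genes, -0.13 and -0.02 for 27 fatty acid and triglyceride genes, and 0.16 and 0.16 for 32 unfolded protein and ATF4 stress genes. They were -0.23 and -0.11 for 24 p53 targets, -0.33 and -0.14 for 17 circadian clock genes and 0.24 and 0.60 for 6 metallothioneins. In these 7 lists edgeR and DESeq2 called 0 genes for a difference, and at an unadjusted p under 0.05 there were 6 genes in all. They were the vasodilator peptide ADM (-0.43 ± 0.13), NDUFB5 (-0.58 ± 0.21) and SDHD (-0.48 ± 0.21) of the respiratory chain, the folate enzyme ALDH1L2 (0.30 ± 0.11), ATF3 (0.47 ± 0.19) and NFIL3 (0.28 ± 0.13). A missing call does not show that the responses of a gene were equal.

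**Figure D4:**
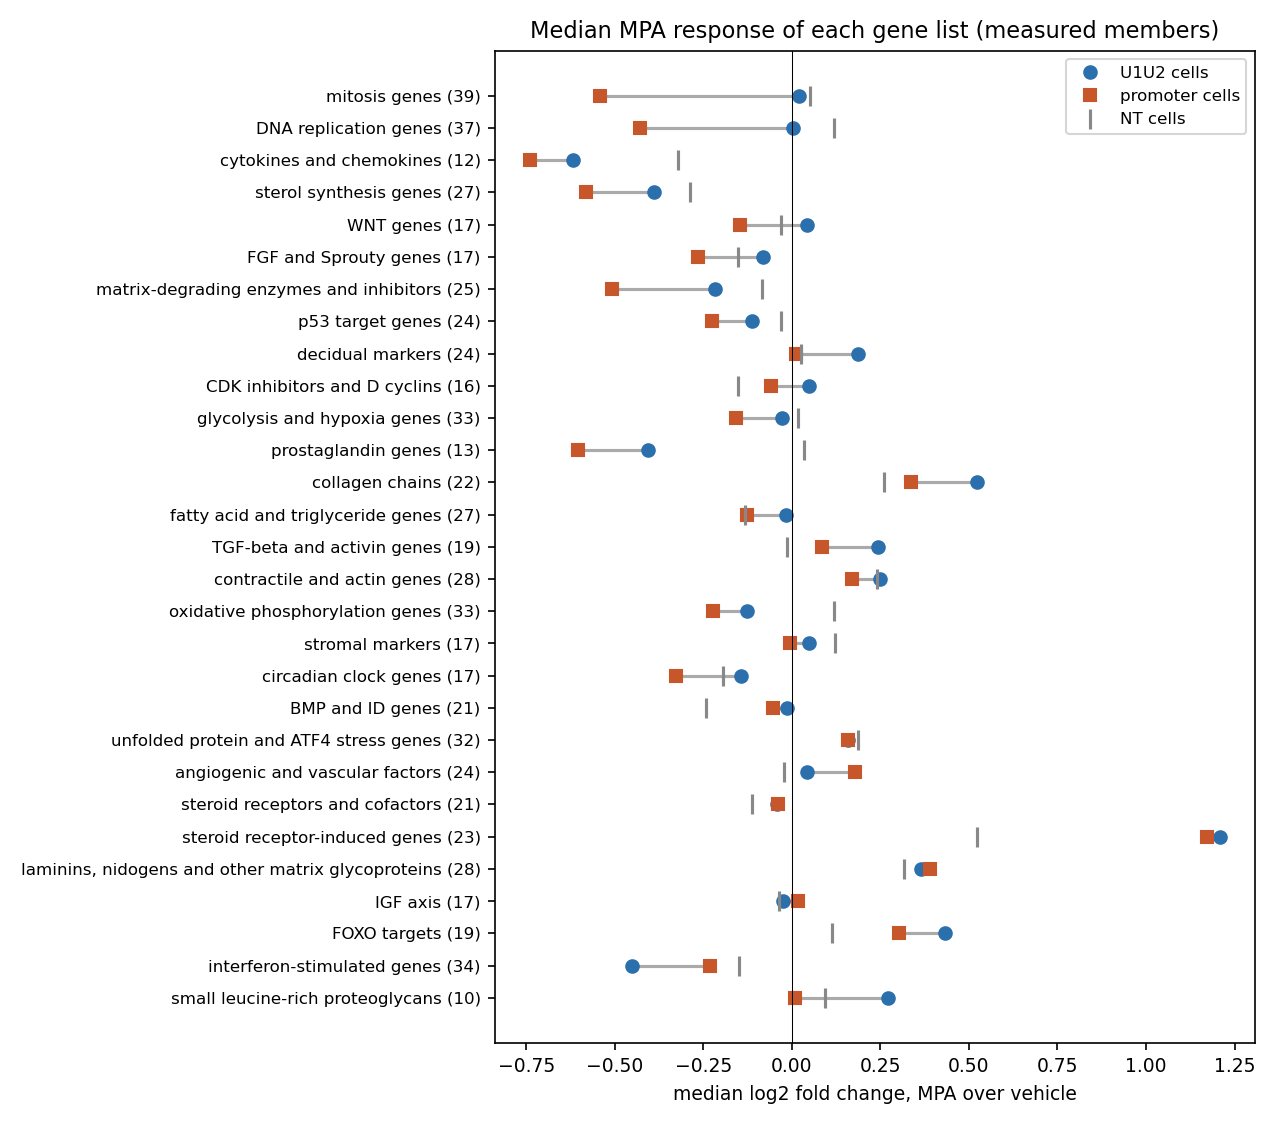
Median log2 fold change under MPA (x axis) of the measured members of 29 gene lists (number of genes in brackets) in U1U2 cells (circles), promoter cells (squares) and NT cells (ticks), ordered by the median difference of the activated lines. Mitosis and DNA replication genes have the widest gaps with a lower promoter value (-0.54 against 0.02 and -0.43 against 0.00), while steroid receptor-induced genes lie together (1.17 and 1.21).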

How the data were processed

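The deposited table held whole-number read counts per gene, for the authors' 18 libraries. STAR 2.6.0c, R 4.4.1, edgeR 4.2.2 and hg38 are named without a role, per the submitters' processing notes. Libraries came from a stranded mRNA kit, per the labels' protocols. How reads were assigned to genes, with which strand setting and which annotation, is not given in the sources used here, so reads of overlapping genes on opposite strands may not have been separated. A deposited log2 CPM table was not used.

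Counts were analysed in R 4.3.3 with edgeR 4.0.16 (filterByExpr with a minimum count of 10, TMM normalisation, quasi-likelihood test, limma 3.58.1) in 1 fit of all 18 libraries with 1 term per group, so that NT libraries inform the spread. The common biological coefficient of variation was 0.129. P-values were adjusted by Benjamini-Hochberg over all 15558 tested genes. Intervals are 95% intervals from the fitted standard errors, and levels are TMM-normalised CPM with no pseudocount. Library depth was 16806173 to 33418643 counts in the 12 libraries. The script was tested on simulated data. DESeq2 1.42.0 was an alternative, beside other filters, fewer libraries, a replicate block and leaving out each library. An offset for GC content and length was chosen after seeing the data.

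The comparison, the 33 gene lists and the rule for named genes were chosen with earlier results of these data known. The rule took up to 8 called genes in each of 6 classes of direction with a mean of at least 1 log2 CPM, and list members and PGR could always be named. Some genes are not reported here. The labels do not say that replicates are separate cultures, so the p-values may rest on technical spread alone. All libraries carry the same batch label. Replicates differed by more than sampling noise, with chi-square per degree of freedom of 1.84 to 30.9 over 18 pairs. Promoter windows are from RefSeq.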

Additional observations from a re-analysis of the deposited data

Results flagged for a closer look

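For DTL the test of the difference between the lines passed: the MPA response of promoter cells minus that of U1U2 cells was -0.87 ± 0.11 on the log2 scale (edgeR adjusted p = 0.00837). Each of the 3 promoter libraries was lower in MPA than every promoter vehicle library, while the U1U2 libraries of both treatments stood between 22.8 and 23.6 CPM.

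For LAMA2 the same test passed in the other direction, with a difference of 0.96 ± 0.13 (edgeR adjusted p = 0.00837). All 6 MPA libraries of the activated lines were above all 6 vehicle libraries.

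No test for a library that stands apart within its group was made, since each group holds 3.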

How the results depend on the processing

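The count of genes whose responses differed (2) was small and moved with the settings. It was 57 with DESeq2, 18 with no filter, 5 with a minimum count of 50, 31 (12 higher and 19 lower) with offsets for GC content and length, chosen after seeing the data, 19 at an adjusted p under 0.1, 0 with only the 12 libraries of the activated lines fitted, and 0 to 3 when 1 library was left out. The vehicle difference (122 genes) was 266 with DESeq2, 289 with the offsets and 39 to 126 without 1 library. The MPA difference (51 genes) was 86, 90 and 15 to 51. Called list members (1) were 16 with DESeq2, 5 with no filter, 2 with a minimum count of 50, 0 with 12 libraries, 10 with the offsets and 0 to 1 without 1 library.

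With a replicate block the counts were 0 for the difference of responses, 69 in vehicle, 25 in MPA and 0 list members. DTL and LAMA2 then had an adjusted p of 0.0506 each. The numbers did not pair the samples: same-numbered libraries correlated from -0.47 to 0.285 over 18 pairs, 5 over 0.1, and 0 of 12 libraries correlated best with their own number.

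The slope of responses was 1.09 with a minimum count of 50, 1.14 over genes called in either line, 1.12 over all genes, 1.09 over genes with a mean of at least 3 log2 CPM, and 1.09 to 1.14 without 1 library. The share with the same sign was 74.2% over all genes, 96.8% at 3 log2 CPM and 95% to 96.6% without 1 library. The median gain in promoter cells ran from 0.018 to 0.076 without 1 library.

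For 33 lists under 19 settings, 499 of 627 median differences stayed within 1 SD of the reported one, 128 moved further and 43 changed sign. The SD is that of 3 medians, each with 1 promoter MPA library in place of that group's mean. It leaves out the spread of the other groups and is not the spread of the reported median. For 23 genes, 0 of 437 values changed direction and 41 gained a call. These were the 19 genes at an adjusted p under 0.1 in these same libraries, with PGR, FKBP5, HAND2 and HSD11B1 added. Genes chosen in that way could hardly change direction, so the 0 is no test of how stable the directions are. DTL and LAMA2, the 2 genes with a call to lose, lost it in 8 of their 38 fits. Depth limits the scarce genes: 4703 tested genes allow a difference beyond 2-fold.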
